A study of Mus musculus with 6 samples.

Results

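Inhibitory interneurons, the neurons that release the transmitter GABA (gamma-aminobutyric acid), are recognised by a small group of genes, and 8 of these were followed here. They were taken by name as Gad1, Gad2, Slc32a1, Dlx1, Dlx2, Dlx5, Lhx6 and Sp9, which are 8 of the 55416 genes in the deposited expression table. The study measured RNA from mouse primary neurons of wild-type genotype, labelled as coming from brain, infected with AAV, an adeno-associated viral vector. For 3 libraries the vector carried miR-9-3p under the hsyn (synapsin) promoter, which drives expression mainly in neurons. In the other 3 libraries, the controls, the sample labels name a scramble virus while the protocol names AAV-hsyn-mCherry, a red fluorescent protein. Which of these was used, the brain region, the age and the strain of the mice are not given in the sources used here. The labels do not tell separate cultures from repeat libraries of one culture, so each p-value rests on a spread that could be technical. The question put by the design is how miR-9-3p changes gene expression in neurons.

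GABA is made from glutamate by the 2 forms of glutamate decarboxylase, GAD67 (encoded by Gad1) and GAD65 (encoded by Gad2), and is loaded into synaptic vesicles by the vesicular transporter encoded by Slc32a1. The homeobox factors Dlx1, Dlx2 and Dlx5 act in the progenitors and young neurons of the ventral forebrain, where most cortical and striatal inhibitory neurons arise. Lhx6, a LIM homeobox factor, marks interneurons from the medial ganglionic eminence, and Sp9 is a zinc finger factor of the ganglionic eminences. GAD and Slc32a1 transcripts are found in inhibitory neurons of every kind, including striatal projection neurons, so these genes do not mark interneurons alone.

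The sequences of the overexpressed strand and of its partner from the same hairpin are shown with the seed, bases 2 to 8, in capitals, because the seed is the stretch through which a microRNA usually pairs with a messenger RNA. They are RefSeq's mature sequences on GRCm38.p6, and the same pair of mature sequences is annotated at Mir9-1 on chromosome 3, Mir9-3 on chromosome 7 and Mir9-2 on chromosome 13.
mmu-miR-9-3p: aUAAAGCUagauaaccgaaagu
mmu-miR-9-5p: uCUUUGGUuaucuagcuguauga
The letters AGCTTTA (pairing with bases 2 to 8 of miR-9-3p) or GCTTTAA (bases 2 to 7, then A) were searched on the transcript strand in the longest annotated 3′ UTR of each gene. They were found once in Slc32a1 and once in Dlx1, and in none of the other 6 genes. Other parts of the transcripts and shorter matches were not searched. These stretches are shown on GRCm38 with the match in capitals, since they are the places in the searched 3′ UTRs that hold such a match to the miR-9-3p seed.
Slc32a1, chr2:158615104-158615127, plus strand, 3′ UTR: ggaggccgAGCTTTAAacacctcc
Dlx1, chr2:71533567-71533589, plus strand, 3′ UTR: tccaggtcGCTTTAAagtaagac
The Slc32a1 match begins at base 108 of a UTR of 744 bases, and the Dlx1 match at base 1057 of 1462. Among 12205 tested genes with a 3′ UTR, 21.2% held such a match, against 2 of these 8. The miR-9-5p letters, ACCAAAG or CCAAAGA, were found once each in Gad1, Gad2 and Lhx6, against 25.7% of the same genes. A match is a stretch of letters only, and pairing was not measured.

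All 8 genes passed the filter used for testing, at least 1 FPKM (fragments per kilobase of exon, scaled to the mapped fragments of the library) in at least 3 libraries, which 14229 genes passed. The depth by which FPKM was scaled, recovered from the values, was 16001205 to 17936453 reads a library. Each value of the 8 genes rested on 297 to 10189 reads. All 14 pan-neuronal markers and all 12 astrocyte markers also passed, while 3 of 9 microglia markers did. Every library also held RNA of genes typical of lung. The median level of 9 alveolar type 2 lung markers, as a fold of the lowest library, was 2.24, 3.94 and 12.2 in control libraries 1, 2 and 3, and 3.32, 1.06 and 1 in miR-9-3p libraries 1, 2 and 3. This median is called the lung level here. The airway transcripts divided the libraries in another way: Bpifa1 stood at 0.939% to 0.966% of Scgb1a1 in control libraries 2 and 3 and miR-9-3p library 1, and at 0% to 0.0293% in the other 3.

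Among the genes of GABA synthesis and packaging, the 2 decarboxylases hardly moved between libraries, while the vesicular transporter ranged widely within each group. Gad1 (chr2:70553072-70602014, plus strand, mm10) stood at 74.98, 74.36 and 69.01 FPKM in the controls, in the order of library 1, 2 and 3, and at 65.2, 71.6 and 69.6 FPKM with miR-9-3p in the same order. Gad2 (chr2:22622205-22693874, plus strand) stood at 44.4, 48.0 and 49.6 FPKM in the controls and at 56.1, 47.7 and 42.8 FPKM with miR-9-3p. For both enzymes the groups overlapped, and the highest library exceeded the lowest by 1.15-fold for Gad1 and 1.31-fold for Gad2. Slc32a1 (chr2:158610767-158615748, plus strand) stood at 58.9, 40.8 and 32.2 FPKM in the controls and at 24.4, 46.5 and 45.2 FPKM with miR-9-3p. Its highest value was in control library 1 and its lowest in miR-9-3p library 1, a 2.41-fold range, with the other 4 libraries between them.

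Among the transcription factors, Dlx2, Dlx5 and Sp9 were lowest in the same pair of libraries as Slc32a1. Dlx2 (chr2:71543408-71546754, minus strand) stood at 21.0, 16.8 and 11.1 FPKM in the controls and at 9.16, 15.8 and 18.4 FPKM with miR-9-3p. Dlx5 (chr6:6877805-6882085, minus strand) stood at 15.1, 14.6 and 8.07 FPKM in the controls and at 7.64, 13.97 and 11.4 FPKM with miR-9-3p. Sp9 (chr2:73271925-73284706, plus strand) stood at 14.1, 11.3 and 6.79 FPKM in the controls and at 6.57, 13.4 and 14.6 FPKM with miR-9-3p. For all 3 of these factors, miR-9-3p library 1 was the lowest and control library 3 the next lowest, and the groups overlapped. Dlx1 (chr2:71528113-71533981, plus strand), which lies 9426 bases from Dlx2, stood at 29.7, 27.0 and 18.3 FPKM in the controls and at 22.8, 26.0 and 29.1 FPKM with miR-9-3p. Lhx6 (chr2:36081953-36105408, minus strand) stood at 19.7, 16.2 and 13.9 FPKM in the controls and at 16.9, 22.8 and 21.2 FPKM with miR-9-3p. Control library 3 was the lowest of the 6 for both Dlx1 and Lhx6, and the 2 highest Lhx6 values were miR-9-3p libraries 2 and 3.

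**Figure D1:**
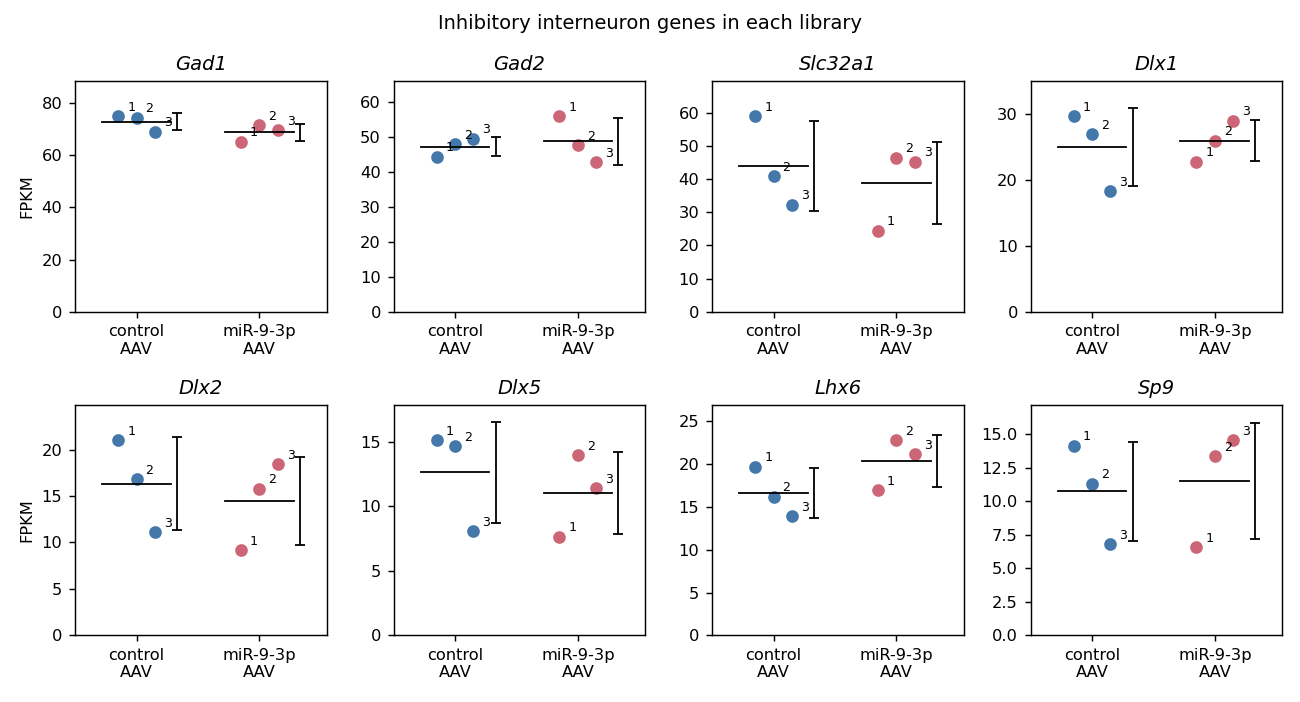
Level of each of the 8 genes in FPKM (vertical axes from 0, one scale per gene) in the 3 control AAV and 3 miR-9-3p AAV libraries; points are libraries, numbered by replicate, and bars show mean ± SD. The groups overlap for all 8 genes, and Gad1 and Gad2 vary least between libraries.

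None of the 8 genes differed between the vectors by limma's test on log2(FPKM + 1) with Benjamini-Hochberg adjustment over 14229 genes, and in none of the 8 did the groups stand apart. Of all genes tested, 6.29% were called at an adjusted p under 0.05 (3.89% higher and 2.4% lower with miR-9-3p), and in 34.9% the groups did not overlap. At an unadjusted p under 0.05 the count among the 8 genes was also 0. The mean of Gad1 was 72.8 ± 3.28 FPKM (SD, n = 3) in the controls and 68.8 ± 3.26 FPKM with miR-9-3p, a log2 fold change of -0.08 with a 95% interval of -0.29 to 0.13 (limma adjusted p = 0.587). Gad2 had the next narrowest interval, -0.25 to 0.33 around 0.04, from means of 47.3 ± 2.66 and 48.9 ± 6.70 FPKM (limma adjusted p = 0.869).

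For the other members the intervals were wider. Slc32a1 averaged 44.0 ± 13.6 FPKM in the controls and 38.7 ± 12.4 FPKM with miR-9-3p (SD, n = 3), and its log2 fold change of -0.19 had an interval of -0.95 to 0.56 (limma adjusted p = 0.723). Sp9 had the widest interval of the 8, -0.77 to 0.92 around 0.07, from means of 10.8 ± 3.71 and 11.5 ± 4.32 FPKM (limma adjusted p = 0.916). Dlx2 (16.3 ± 4.98 and 14.5 ± 4.78 FPKM) and Dlx5 (12.6 ± 3.94 and 11.01 ± 3.18 FPKM) each had a log2 fold change of -0.17. Lhx6 had the lowest p of the 8, with means of 16.6 ± 2.91 and 20.3 ± 3.04 FPKM and a log2 fold change of 0.28, interval -0.11 to 0.67 (limma adjusted p = 0.308). Dlx1 averaged 25.001 ± 5.96 and 26.0 ± 3.12 FPKM, a log2 fold change of 0.07. In this fit, which has no covariate, the intervals of Slc32a1, Dlx2, Dlx5 and Sp9 span values on either side of 0. In bulk RNA, fewer inhibitory neurons and less RNA per inhibitory neuron cannot be told apart.

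**Figure D2:**
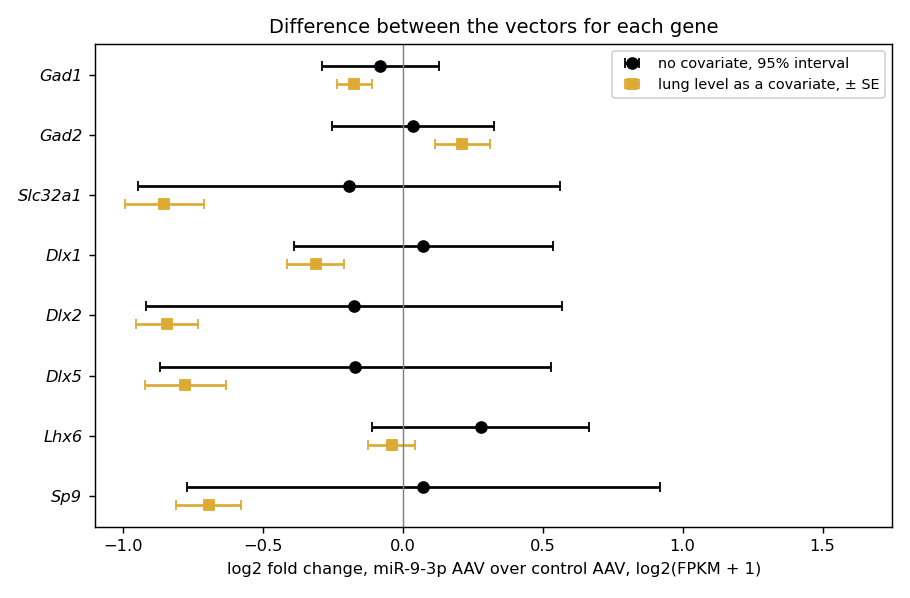
Log2 fold change of each gene, miR-9-3p AAV over control AAV, on the log2(FPKM + 1) scale (horizontal axis), 3 libraries a group. Black circles with 95% intervals come from the fit without a covariate and all cross 0; yellow squares with standard errors come from the fit with the lung level as a covariate, in which Slc32a1, Dlx2, Dlx5 and Sp9 lie between -0.69 and -0.85.

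Since FPKM is per length, the levels of the 8 genes can be set side by side, though only roughly. FPKM makes no allowance for the content of G and C bases, which ran from 44.1% in Gad2 to 61.9% in Slc32a1. In the controls the order of mean levels ran from Gad1 through Gad2, Slc32a1, Dlx1, Lhx6, Dlx2 and Dlx5 to Sp9. With miR-9-3p the order was the same except that Sp9 stood above Dlx5. Neighbours in this order overlapped in their ranges over libraries apart from Gad1 over Gad2 in both groups, Slc32a1 over Dlx1 in the controls, and Dlx1 over Lhx6 with miR-9-3p. The ratio of Slc32a1 to Gad1, the transporter to the main synthetic enzyme, was 0.786, 0.549 and 0.467 in the controls and 0.374, 0.649 and 0.650 with miR-9-3p. The ratio of Gad2 to Gad1 ran the other way over the same libraries, at 0.592, 0.645 and 0.719 in the controls and 0.860, 0.666 and 0.615 with miR-9-3p. The library with the lowest transporter share, miR-9-3p library 1, was therefore also the one with the highest Gad2 share. Between the neighbouring genes Dlx2 and Dlx1 the ratio stayed between 0.607 and 0.708 in 5 libraries and was 0.401 in miR-9-3p library 1.

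Exons of 3 of the 8 genes overlap a gene on the opposite strand, and whether reads were assigned by strand is not given in the sources used here. Slc32a1 shares 697 bases, 24.9% of its exon length, with Gm14205, which was at most 0.315 FPKM in any library. Dlx1 shares 335 bases, 6.21%, with Dlx1as, at 2.25 to 3.83 FPKM, and Sp9 shares 270 bases, 5.35%, with Cir1, at 3.88 to 5.47 FPKM. Lhx6 holds the short gene Gm27953 on its own strand over 2.16% of its exon length. These are shares of exon length and not of reads. How many reads fell in the shared stretches was not measured, so the size of any error in the levels of these 4 genes is not known.

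Most of the 8 genes were lower where the lung level was higher. In a limma fit with the vector and the lung level together, 6 of the 8 fell with the lung level (Benjamini-Hochberg adjusted p under 0.05), none rose, and Gad1 and Gad2 did not pass. Of all genes tested, 31.7% passed in this fit, 18.8% falling and 12.9% rising. Per doubling of the lung level, Sp9 fell by 0.47 on the log2 scale (limma adjusted p = 0.00222), Dlx2 by 0.41 (0.00267) and Slc32a1 by 0.40 (0.00558). Dlx5 fell by 0.37 (adjusted p = 0.00736), Dlx1 by 0.23 (0.0104) and Lhx6 by 0.19 (0.0104). Gad1 had a slope of -0.06 (adjusted p = 0.144) and Gad2 one of 0.11 (adjusted p = 0.0895). Without control library 1 the count falling was 3 of 8, and without control library 3, the library with the most lung RNA, 4 fell and Gad2 rose. The count was 6 when any one of the other 4 libraries was left out. The shares of all genes in these smaller fits are not given here, so the changes in count have no background beside them.

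**Figure D3:**
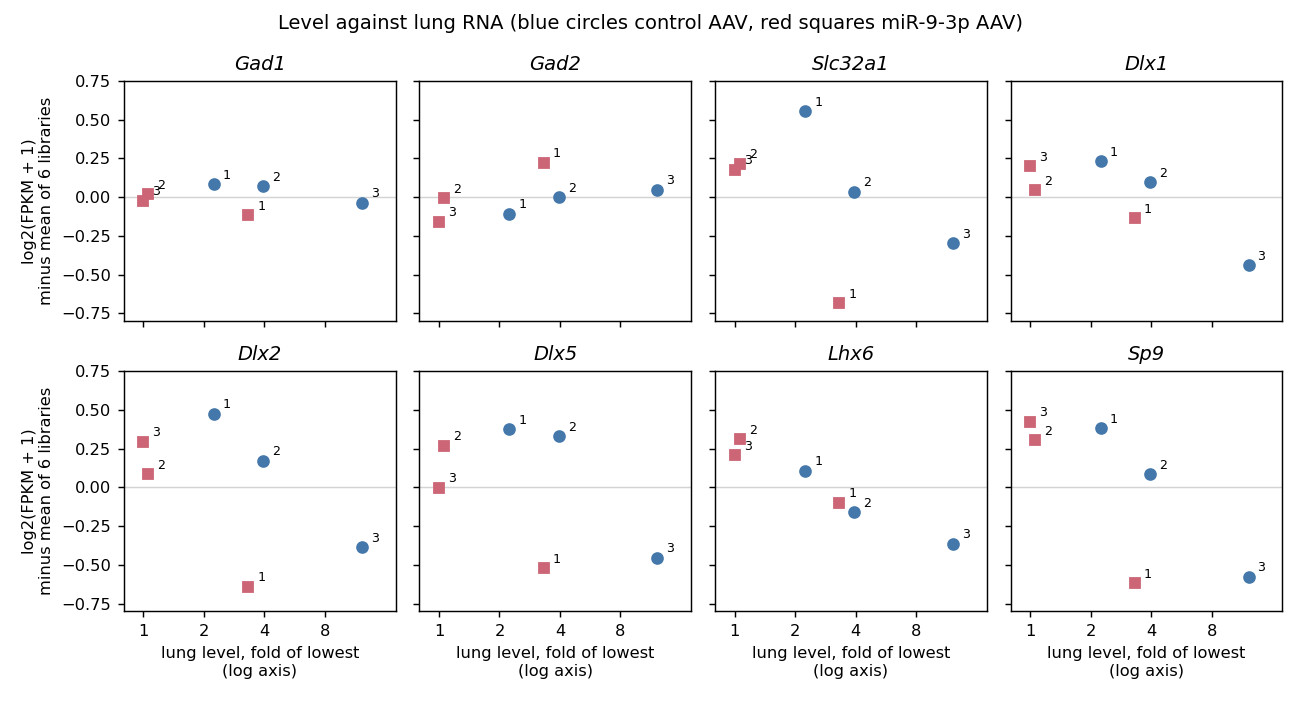
Each gene's log2(FPKM + 1) minus its mean over the 6 libraries (vertical axes) against the lung level as a fold of the lowest library (horizontal log axes); blue circles are control AAV and red squares miR-9-3p AAV libraries, numbered by replicate. In Slc32a1, Dlx2, Dlx5 and Sp9, miR-9-3p library 1 lies lowest at a lung level of 3.32, below control library 2 at 3.94.

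When the lung level entered the fit as a covariate, the vectors differed for 4 of the 8 genes. Slc32a1 (log2 fold change -0.85, limma adjusted p = 0.00969), Dlx2 (-0.84, 0.00612), Dlx5 (-0.78, 0.0128) and Sp9 (-0.69, 0.00992) were lower with miR-9-3p, and none was higher. Dlx1 had a value of -0.31 (adjusted p = 0.0639), Gad1 of -0.17 (0.086), Lhx6 of -0.04 (0.752) and Gad2 of 0.21 (0.148). In the same fit 31.4% of all genes were called, 18.2% lower and 13.2% higher, so a call was far more frequent than without the covariate. The calls were lost together with those of other genes when single libraries were left out. Without control library 1, limma called none of the 8 and 0 of all genes, while the log2 fold changes were -0.82 for Slc32a1, -0.93 for Dlx2, -0.95 for Dlx5 and -0.83 for Sp9 (lowest adjusted p of these, 0.0894). Without miR-9-3p library 1, Dlx2 alone of the 8 was called, and 643 genes of all were called higher and 768 lower, against 1883 and 2586 with every library. The values were then -0.62 for Slc32a1, -0.68 for Dlx2, -0.74 for Dlx5 and -0.47 for Sp9. Without control library 3, Dlx1 was added as lower and Gad2 as higher, in a fit that called 2304 of 14229 genes higher and 3371 lower. Without control library 2, miR-9-3p library 2 or miR-9-3p library 3, 4 were called lower. In the same order, these fits called 2108, 1898 and 1938 of all genes lower and 1528, 1304 and 1341 higher. The lung level is itself unequal between the groups, with 2 of the 3 miR-9-3p libraries below every control.

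Within the libraries alike in Bpifa1, Slc32a1, Dlx2 and Dlx5 had the largest differences of the 8 genes, and Sp9 had a large one in only 1 of the 2 sets. Among control libraries 2 and 3 and miR-9-3p library 1, the log2 difference, miR-9-3p minus control, was -0.55 for Slc32a1, -0.53 for Dlx2, -0.46 for Dlx5 and -0.37 for Sp9. Among control library 1 and miR-9-3p libraries 2 and 3 the differences were -0.36, -0.29, -0.24 and -0.02 in the same order of genes. Each of these sets has a single library on one side, so the values have no replicate check of their own. The sets were not alike in lung level. It was 3.94 and 12.2 in control libraries 2 and 3 against 3.32 in miR-9-3p library 1. In the other set it was 2.24 in control library 1 against 1.06 and 1 in miR-9-3p libraries 2 and 3. Gad1 was at -0.13 and -0.09, Gad2 at 0.20 and 0.02, Dlx1 at 0.03 and -0.11, and Lhx6 at 0.16 and 0.15. With this division as a batch term over all 6 libraries, limma called Slc32a1 lower (-0.45, adjusted p = 0.0474) and no other member, where 18.6% of all genes were called (9.91% higher and 8.74% lower).

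The members that fell with the lung level were also those richest in G and C bases. Over 14095 genes, the slope on the lung level had a Spearman correlation of -0.50 with the GC content of the longest transcript and of 0.11 with exon length, as a description across genes, which are not independent replicates. When the genes were divided by GC content into 4 groups of equal size, 46.3% of the group with the highest content, 54.5% and above, fell with the lung level, against 1.11% of the group with the lowest. Of the 8 genes, 5 were in that highest group, and Gad2 (44.1% GC), the member with a positive slope, was in the lowest. Slc32a1 was the richest at 61.9% GC, and Gad1, which hardly moved, stood at 47.3%. After removal of each library's trend on GC content, an alternative chosen after seeing the data, Sp9 (-0.40, limma adjusted p = 0.00406), Dlx2 (-0.24, 0.00962), Dlx5 (-0.27, 0.0373) and Slc32a1 (-0.15, 0.0483) fell with the lung level. Dlx1 (-0.13, limma adjusted p = 0.0956) and Lhx6 (-0.07, 0.205) no longer passed in that fit. The share of all genes that fell in it is not given here, so these calls have no background beside them. The part of lung RNA, GC content or RNA quality in the members' spread was not tested.

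Set against markers of excitatory projection neurons, the 8 genes stood lower in every miR-9-3p library than in any control. The mean log2(FPKM + 1) of the 8 genes was 4.92, 4.74 and 4.34 in the controls and 4.33, 4.81 and 4.80 with miR-9-3p. The mean of 18 projection neuron markers was 3.83, 3.70 and 3.32 in the controls and 3.75, 3.98 and 4.03 with miR-9-3p. The difference between these means was 1.09, 1.03 and 1.03 in the controls and 0.588, 0.836 and 0.771 with miR-9-3p, that is 1.051 ± 0.0378 and 0.731 ± 0.129 (SD, n = 3), and the groups did not overlap. The value is given without a test, because the members were chosen with earlier results of these data known. The median log2 fold change of the projection neuron markers was 0.30, with 17 of 18 above 0, against -0.02 for the 8 genes and -0.02 for all genes tested. With the lung level as covariate these medians were -0.01, -0.50 and -0.05 in the same order, and the median of the projection neuron markers was no longer above 0. Against 14 pan-neuronal markers (median log2 fold change 0.21) the mean of the 8 genes lay lower, with the difference (members minus markers) at -1.14, -1.25 and -1.302 in the controls and at -1.74, -1.35 and -1.42 with miR-9-3p. The single ratio of Slc32a1 to Slc17a7, the vesicular glutamate transporter of cortical excitatory neurons, did overlap between groups, at 1.34, 1.20 and 1.48 in the controls and 0.965, 1.28 and 1.23 with miR-9-3p.

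**Figure D4:**
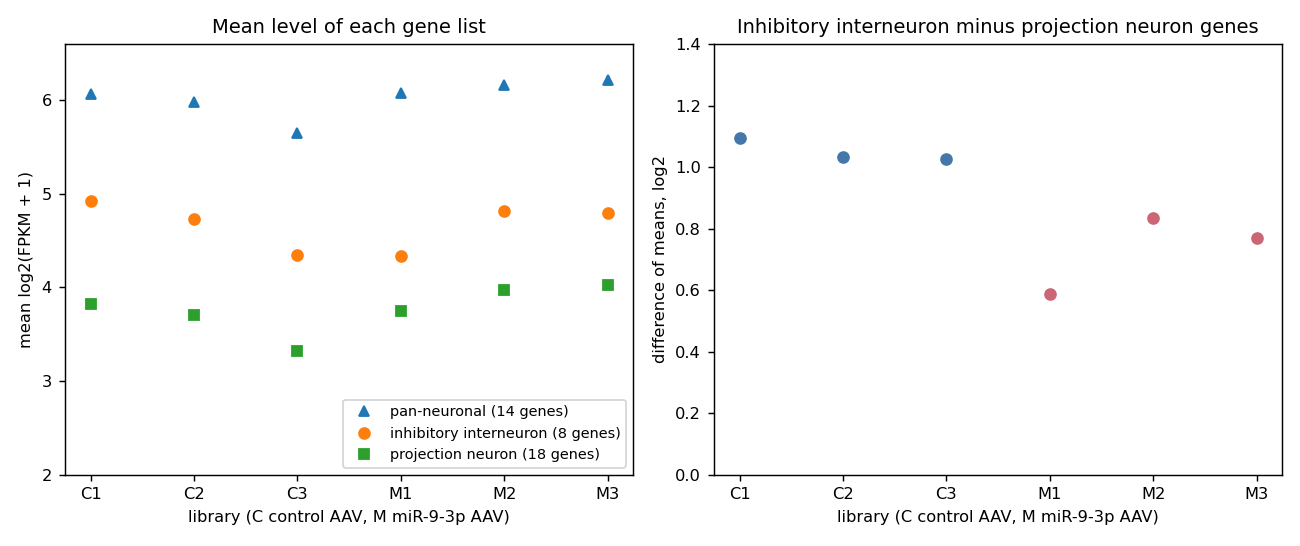
Left, mean log2(FPKM + 1) of 14 pan-neuronal, 8 inhibitory interneuron and 18 projection neuron genes in each library; right, the inhibitory mean minus the projection neuron mean, with the axis from 0. Control libraries lie at 1.03 to 1.09 and miR-9-3p libraries at 0.588 to 0.836.

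Among 71 other genes of inhibitory neurons in 4 lists, 62 were tested, and 6 were called higher and 4 lower with miR-9-3p by limma, with a median log2 fold change of 0.04. Of all genes tested, 3.89% were called higher and 2.4% lower. Among the list genes called lower, Crh reached the filter of 1 FPKM in the controls alone, and Pthlh in the controls and miR-9-3p library 2. Of 20 tested factors of fate and migration, Sox6, which acts after Lhx6 in interneurons of the medial ganglionic eminence, was the one called. It rose from 5.12 ± 0.272 to 7.68 ± 0.345 FPKM (log2 fold change 0.50, limma adjusted p = 0.0285), with every miR-9-3p library above every control. The median of that list was -0.01, and the lung transcription factor Nkx2-1, which is also a factor of the medial ganglionic eminence, rose with the lung level (slope 0.49, adjusted p = 0.018); it is named here after its values were seen.

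Of 18 receptors, channels and migration genes, Cntnap4, a neurexin-family protein of interneuron synapses, rose from 4.99 ± 0.268 to 8.69 ± 0.536 FPKM (log2 fold change 0.69, limma adjusted p = 0.0204). Kcnc2, a potassium channel of fast-spiking cells, rose from 2.53 ± 0.184 to 3.74 ± 0.171 FPKM (0.42, adjusted p = 0.0473). Htr3a, the serotonin receptor channel of interneurons from the caudal ganglionic eminence, fell from 6.99 ± 1.64 to 2.96 ± 0.446 FPKM (-0.996, adjusted p = 0.0334). In 8 of the 18 genes of this list the groups did not overlap, against 34.9% of all genes tested. The median of the list was 0.11.

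Of 15 tested peptides and subtype markers, 1 rose and 2 fell. Reln, the secreted protein reelin, rose from 20.4 ± 0.477 to 28.7 ± 2.32 FPKM (log2 fold change 0.47, limma adjusted p = 0.0372). Pthlh, a parathyroid hormone-like peptide, fell from 2.88 ± 0.363 to 0.871 ± 0.264 FPKM (-1.06, adjusted p = 0.0236). With miR-9-3p, Pthlh reached 1 FPKM in library 2 (1.17 FPKM) but not in libraries 1 and 3 (0.791 and 0.655 FPKM). It passed the filter through the controls, which favoured a call in this direction. Crh, corticotropin-releasing hormone, fell from 1.54 ± 0.363 to 0.267 ± 0.0428 FPKM (-0.99, adjusted p = 0.0264). It reached the filter of 1 FPKM in the 3 controls alone, so the filter itself favoured a call in this direction. With miR-9-3p it lay below the filter, and the added 1 FPKM shrinks its log2 change. Sst, the peptide somatostatin and named here after its values were seen, behaved like the low members: it stood at 263.6, 156.5 and 113.8 FPKM in the controls and at 93.4, 203.1 and 195.8 FPKM with miR-9-3p (log2 fold change -0.11, adjusted p = 0.887). Its slope on the lung level was -0.53 (adjusted p = 0.00402).

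Of 9 tested genes of GABA uptake, breakdown and packaging, 2 rose and 1 fell. Aldh5a1, which completes GABA breakdown by oxidising succinic semialdehyde, rose from 9.39 ± 0.774 to 15.3 ± 0.511 FPKM (log2 fold change 0.65, limma adjusted p = 0.0223). Slc38a2, a glutamine transporter, fell from 32.8 ± 5.003 to 21.5 ± 0.766 FPKM (-0.57, adjusted p = 0.0498). The median of the list was 0.02.

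**Figure D5:**
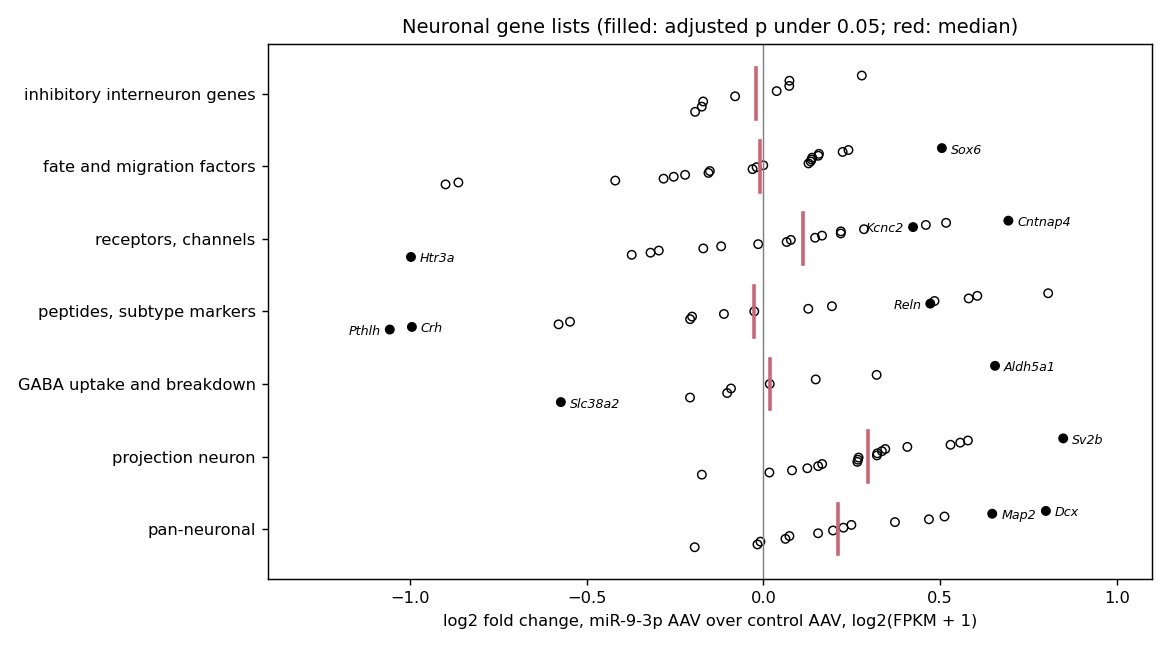
Log2 fold change, miR-9-3p AAV over control AAV, on the log2(FPKM + 1) scale (horizontal axis) for the tested genes of 7 neuronal lists (rows), less 1 gene not shown; filled points have a limma adjusted p under 0.05 and red bars are list medians. The 8 inhibitory interneuron genes hold no filled point and a median of -0.02, against 0.30 for projection neuron markers.

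Other neuron types and other cells give the setting of these values. Sv2b, a synaptic vesicle protein, rose from 9.11 ± 1.17 to 17.1 ± 0.607 FPKM (log2 fold change 0.85, limma adjusted p = 0.0207) and was the one of 18 projection neuron markers called. Of the 14 pan-neuronal markers, Dcx (0.80, adjusted p = 0.0299) and Map2 (0.65, adjusted p = 0.0374), a pair of microtubule-binding proteins, were called higher. None of 12 tested striatal projection neuron markers was called, with Pde10a at 0.34 (adjusted p = 0.0699) and Rgs9 at 0.43 (adjusted p = 0.0945). The 12 astrocyte markers had a median of -0.39, with 3 above 0 and 9 below. Gfap (-1.55, limma adjusted p = 0.017) and Acsbg1 (-0.78, adjusted p = 0.0498) were called lower, as were 2.4% of all genes tested. Slc1a2 (0.21), Slc1a3 (0.13) and Sox9 (0.14), named here after their values were seen, went the other way and were not called. The summed level of the astrocyte markers was 694.1 to 763.6 FPKM in the controls and 501.8 to 539.9 FPKM with miR-9-3p. The part of this lower summed astrocyte level in the neuronal values was not tested. With the lung level, 10 of 18 projection neuron and 7 of 14 pan-neuronal markers fell and none rose, beside 6 of the 8 identity genes. The median slopes were -0.17, -0.14 and -0.30.

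The genes whose pattern over the 6 libraries was most like the mean of the 8, among 10466 candidates, were Tmem145, Lmtk2, Atp6v0a1, Bcr, Fbxl16 and Abcg4. Their Pearson correlations with that mean ran from 0.995 to 0.999 over 6 libraries that share depth and lung RNA, and are given as a description. Tmem145, the closest, stood at 28.4, 22.6 and 12.9 FPKM in the controls and at 13.7, 24.1 and 22.2 FPKM with miR-9-3p. The members themselves were less alike: Dlx5, Sp9, Dlx2 and Slc32a1 had correlations of 0.961, 0.960, 0.942 and 0.927 with the mean to which they contribute. Dlx1 had 0.899, Gad1 0.817 and Lhx6 0.737, and Gad2 ran against the others at -0.761.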

How the data were processed

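RNA was harvested with Trizol and libraries were made by standard Illumina protocols, per the labels' protocols. The submitters' processing notes name HISAT2, Cufflinks 2.2.1 and the mm10 build, with no roles given. The authors deposited 1 table of FPKM values per gene and library, which are normalized for length and depth and are not counts. Symbols came from an mm10 (GRCm38) annotation for 52083 genes, and 3333 IDs had no match. FPKM steps gave whole reads for 98.1% of values (tolerance 0.01 read), and those reads gave the depths of 16001205 to 17936453.

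The test was limma 3.58.1 (R 4.3.3) on log2(FPKM + 1) with an intensity trend, 3 libraries against 3, a filter of 1 FPKM reached in 3 or more libraries, Benjamini-Hochberg over all 14229 genes, two-sided, call under 0.05. Fold changes on this scale understate changes of low genes. It was tested on simulated data. The members and lists were chosen with earlier results of these data known. Named genes were the 8 members, up to 4 called genes per list with the largest change (with 0 called, the 2 with the lowest p), and the 6 most alike in pattern. Others are marked where they occur, and 2 called list genes are counted but not reported here by name. Alternatives covered pseudocount, filter, scaling, trend, weights, lung covariate and batch, length and GC trends, voom on recovered reads, the replicate block and each library left out. The GC trend, the covariate with the length or GC trend, and the covariate with 1 library left out were chosen after seeing the data.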

Additional observations from a re-analysis of the deposited data

How the results depend on the processing

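None of the 8 genes was called higher or lower with a pseudocount of 0.1, no filter, a filter of 5 FPKM, quantile normalization, size factors, no intensity trend, an adjusted p under 0.1, voom, removal of the exon length trend, or without each group's highest lung library. Leaving out each library in turn gave 0 of 8, while the counts over all genes ran from 0 to 459 higher and 0 to 287 lower, against 554 and 341 in full; 5 of the 6 fits gave 0, and without control library 3 the counts were 459 and 287. Same-numbered libraries had correlations of -0.649, 0.111 and -0.535, and not every library correlated best with its own number. The highest correlation, 0.621, joined control library 3 and miR-9-3p library 1, which had the highest lung level of their groups. A pairing by number could be hidden by such a difference, so the correlations cannot tell whether the numbers pair the samples. With the replicate block limma called 0 genes of all, 0 of the 8 and 0 of the 62.

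The count of the 8 called lower was 4 with the lung covariate, 5 with that covariate and the exon length or GC trend removed, and 1 with the lung set as batch; 1 was called higher with array quality weights and 1 with the GC trend removed, both times Lhx6 (0.43, adjusted p = 0.000667, and 0.34, adjusted p = 0.0352). Voom on the recovered reads called 541 genes higher and 425 lower of all. The covariate with 1 library left out gave 0 to 5 lower and 0 to 1 higher. Over all genes, higher and lower counts were 109 and 67 with no filter, 4450 and 4516 with array quality weights (whose estimation warned of non-convergence), 1883 and 2586 with the covariate, 1410 and 1243 with the lung set, 280 and 211 without the length trend, 1289 and 1054 without the GC trend, 1520 and 1767 with covariate and length trend, 1547 and 1581 with covariate and GC trend, and 853 lower without each group's highest lung library; with the covariate and 1 library left out they ran from 0 to 2304 and 0 to 3371. In the 4 inhibitory neuron lists (6 higher, 4 lower) the counts were 2 and 0 with no filter, 2 lower at 5 FPKM, 25 and 17 with weights, 10 and 17 with the covariate, 9 lower with the lung set, 2 higher without the length trend, 12 and 8 without the GC trend, and 15 and 12 lower with covariate and length or GC trend; they ran from 0 to 4 and 0 to 3 without 1 library, and from 0 to 14 and 0 to 19 with the covariate.

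With the covariate and length trend, then covariate and GC trend, the log2 fold changes were -0.26 and -0.24 for Gad1 (called), -0.66 and -0.43 for Slc32a1, -0.28 and -0.10 for Dlx1, -0.65 and -0.50 for Dlx2, -0.57 and -0.56 for Dlx5, and -0.64 and -0.56 for Sp9. The covariate alone gave -0.85 for Slc32a1, -0.31 for Dlx1, -0.84 for Dlx2, -0.78 for Dlx5, -0.040 for Lhx6 and -0.69 for Sp9, and the lung set gave -0.45 for Slc32a1, -0.037 for Dlx1 and -0.20 for Sp9. Uncalled values changed sign for Gad2 (-0.024 with weights, -0.030 without the highest lung libraries, -0.018 without the GC trend), Slc32a1 (0.13 with weights) and Dlx1 (-0.031 with weights, -0.041 without the highest lung libraries). Without 1 library the ranges were -0.12 to -0.04 for Gad1, -0.064 to 0.13 for Gad2, -0.39 to 0.10 for Slc32a1, -0.13 to 0.21 for Dlx1, -0.41 to 0.10 for Dlx2, -0.44 to 0.049 for Dlx5, 0.17 to 0.40 for Lhx6 and -0.20 to 0.40 for Sp9. With the covariate as well they were -0.20 to -0.15, 0.07 to 0.26, -0.96 to -0.62, -0.47 to -0.27, -0.93 to -0.68, -0.95 to -0.68, -0.088 to 0.020 and -0.83 to -0.47 in the same order. The cause of these changes was not tested.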

Other observations

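Among markers of the oligodendrocyte lineage and of progenitors, which the comparisons above do not describe, single genes were called between the vectors. The 11 oligodendrocyte lineage markers had a median log2 fold change of -0.30, with 3 above 0 and 8 below. Limma called 1 of them higher and 1 lower, while of all genes tested 3.89% were called higher and 2.4% lower. Their summed level was 344.7 to 544.0 FPKM in the controls and 234.5 to 339.9 FPKM with miR-9-3p. The gene called higher went against most of this list. Pdgfra, a growth factor receptor of oligodendrocyte precursor cells, averaged 12.3 ± 1.38 FPKM in the controls and 22.7 ± 1.23 FPKM with miR-9-3p (SD over 3 libraries), which limma called higher (0.84 on the log2 scale, adjusted p = 0.0204), and every miR-9-3p library lay above every control. Fabp7, a lipid-binding protein of radial glia, fell from 824.9 ± 81.8 to 500.5 ± 20.3 FPKM (-0.72, limma adjusted p = 0.0333) and was the one of 9 progenitor markers called. No microglia, endothelial or lung marker was called, and the summed endothelial and mural level ran from 49.9 to 193.8 FPKM in the controls and from 17.6 to 52.8 FPKM with miR-9-3p.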
